A study of Mus musculus with 30 samples.

Results

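Oligodendrocytes make the myelin of the brain, and 34 genes of this lineage were followed in the hippocampus of socially isolated (SI) and group-housed (GH) mice. The genes were taken by symbol as markers of precursors, of newly formed cells and of myelinating cells. All 34 were found among the 17477 genes of the count table, 1 of them (Myrf) through its older symbol Gm98. RNA-seq was done on poly(A)-selected RNA of hippocampus from 30 adult C57 BL/6J mice, each mouse being 1 library. Females numbered 8 in SI and 7 in GH, and males 7 in SI and 8 in GH. SI mice lived singly from weaning on, GH mice of the same strain shared cages and served as controls, and no transgene, allele or drug was involved. The labels do not give the cage, so GH mice from 1 cage cannot be identified.

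Precursor cells carry the PDGF receptor alpha (Pdgfra) and the NG2 proteoglycan (Cspg4) and keep dividing in the adult brain. Some of them leave the cycle and pass through a short newly formed stage, marked by the receptor Gpr17, the phosphodiesterase Enpp6 and Bcas1, before they wrap axons. The transcription factors Olig1, Olig2 and Sox10 act throughout the lineage, and Myrf and Nkx6-2 act in maturing cells. In the hippocampus myelin is densest in the fibre tracts that border it, the alveus and the fimbria.

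Every gene had counts in every mouse, from 97 counts of Enpp6 to 269064 of Mbp, while the totals ranged from 18809307 to 100844898 counts per library. Markers of each stage were therefore present, in whole tissue that also held neurons, astrocytes and other cells. Levels below are CPM (counts scaled to the library size) after TMM scaling of the library sizes, and Log2FC is the log2 fold change of SI against GH from edgeR. Together the 34 genes took a median of 1.05% of the counts in GH females, 0.891% in SI females, 0.849% in GH males and 0.807% in SI males. Per kilobase of transcript Mbp, the gene of myelin basic protein, was the highest at a median of 735 CPM, followed by Mobp at 319 CPM. The lowest were Cspg4 at 2.16 CPM per kilobase and Enpp6 at 2.72 CPM per kilobase. Between all neighbours in this order the ranges over the 30 mice overlapped, as for Bcas1 with a median of 80.5 CPM per kilobase and Olig1 with 80.2.

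The SI males 25, 33 and 39 stood apart from the other 12 males, with scores of 63.4 to 103 on principal component 1 in males (54.2% of the variance) against -37.6 to 0.75. Their slope of expression on log2 transcript length was -0.476 to -0.365, and that of the other 12 males was -0.083 to 0.18. Results in males are therefore given with and without them. Without them the permutation method gave 4 surrogate variables in place of 2, so values without the 3 mice are given with 4 and then with 2. SI males also had fewer counts than GH males, with medians of 25610000 and 49540000. The means were 31730000 and 48690000 (two-sided exact permutation test of the difference in means, p = 0.0392).

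In females 0 of the 34 genes were differentially expressed genes (DEGs, adjusted p under 0.05 from edgeR's quasi-likelihood test with 3 surrogate variables and Benjamini-Hochberg adjustment), where 3.89% of all 16026 genes tested were DEGs (2.93% lower and 0.961% higher in SI). Without adjustment, 7 of the 34 genes (20.6%) were lower in SI at p under 0.05, against 11% of all genes, and 0 were higher, against 9.29%. The 7 were the precursor receptor Pdgfra, Bcas1 of the newly formed genes, the myelin genes Mbp, Mobp and Tspan2, and Plekhb1 and Sirt2. They are not 7 separate observations. Across females Mobp, Bcas1 and Plekhb1 varied closely with Mbp (r = 0.945 to 0.975), and SI females 45 and 63 were the lowest for each of these genes. Of the 34 Log2FC, 26 lay below 0 (76.5%, against 47.2% of all genes), with a median of -0.077, against 0.008 over all genes. That count of 26 depended on the model. It was 18 with limma-voom, sample quality weights and no surrogate variables (47.2% of all genes). With the position digit of the labels as a factor it was also 18 (47.6%). In the other settings that kept all females it was 23 to 27. The 23 came, among others, from edgeR without surrogate variables (47% of all genes). All 4 groups in one fit gave 27 (46.7%). Leaving out 1 female gave 20 (without GH female 71, 48.1% of all genes) to 31 (without GH female 47, 46.6%). In whole tissue, fewer cells of a type and less RNA per cell cannot be told apart.

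**Figure D1:**
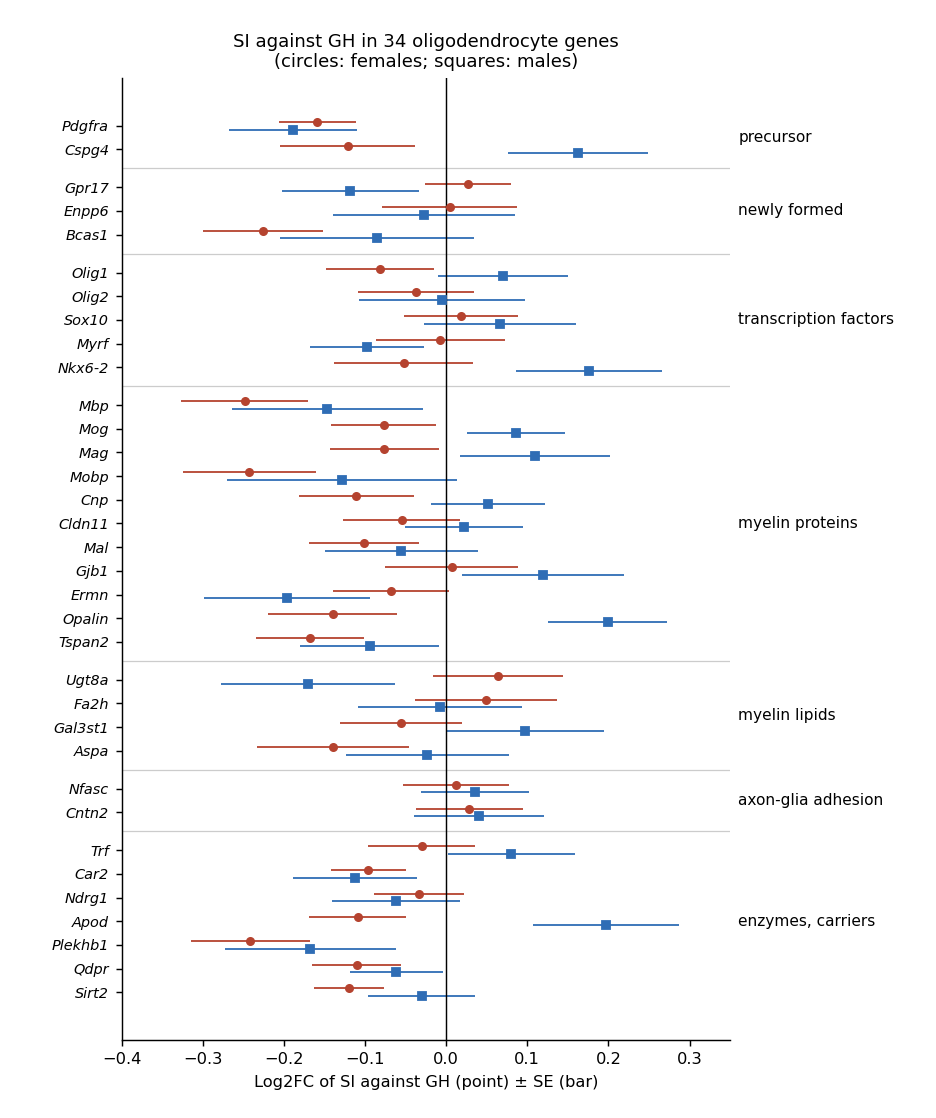
Log2FC of SI against GH (x axis, point) with its standard error (bar) for the 34 genes, grouped by stage and function, in females (circles) and males (squares). In females 26 of 34 points lie left of 0 and in males 19, and no gene passed an adjusted p of 0.05 in either sex.

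Among the precursor genes, Pdgfra was at 42.1 to 61.0 CPM in GH females (median 53.04) and at 37.2 to 54.9 CPM in SI females (median 46.5). The groups overlapped, and 2 of 8 SI females lay below every GH female. Its Log2FC was -0.16 (SE 0.048, adjusted p = 0.0702), the lowest adjusted p of the 34 genes. Cspg4, the second precursor gene, was at 13.03 to 20.2 CPM in GH and 11.5 to 25.2 CPM in SI females, and its Log2FC was -0.12 (SE 0.083, adjusted p = 0.449). SI female 45, the most deeply sequenced library, held the highest value.

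The 3 newly formed genes did not move alike in females. Gpr17, a receptor on cells about to mature, was at 33.7 to 51.7 CPM in GH (median 43.4) and 35.7 to 49.8 CPM in SI females (median 43.7), with a Log2FC of 0.027 (SE 0.053, adjusted p = 0.833). Enpp6 had a Log2FC of 0.0043 and medians of 7.82 and 9.16 CPM in GH and SI. Bcas1 was at 204 to 328 CPM in GH (median 302) and 160 to 311 CPM in SI females (median 244), with a Log2FC of -0.23 (SE 0.074, adjusted p = 0.0944). GH female 46 was the lowest GH female for Bcas1, and 2 SI females lay below it. Across females Bcas1 varied with the myelin gene Mbp (r = 0.957), so its value cannot be read as that of the newly formed stage alone.

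None of the 5 transcription factors had an unadjusted p under 0.05 in females. Olig2, which sets the lineage, was at 29.9 to 41.01 CPM in GH and 30.4 to 41.1 CPM in SI females, so the ranges were almost the same, and its Log2FC was -0.037 (SE 0.071, adjusted p = 0.825). Olig1 had the most negative Log2FC of the 5, -0.081 (SE 0.066, adjusted p = 0.542), with medians of 176 and 173 CPM in GH and SI. Sox10 had the only Log2FC above 0, at 0.018 (SE 0.070). Myrf, the factor that switches on myelin genes, was at 41.5 to 80.1 CPM in GH and 42.4 to 76.4 CPM in SI females, with a Log2FC of -0.0072 (SE 0.079, adjusted p = 0.974).

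Of the 11 myelin protein genes 10 had a Log2FC below 0 in females, with a median of -0.10. Mbp, which compacts the myelin membranes, ranged from 3177 to 5141 CPM in GH females (median 4431) and from 2468 to 4482 CPM in SI females (median 3626). The lowest SI females, 2 of 8, lay below every GH female, none lay above them, and the Log2FC was -0.25 (SE 0.078, adjusted p = 0.0835). Mobp, a second basic protein of compact myelin, was at 920 to 1562 CPM in GH (median 1388) and 780 to 1436 CPM in SI females (median 1097), with a Log2FC of -0.24 (SE 0.082, adjusted p = 0.105). Tspan2, a tetraspanin, was at 112 to 173 CPM in GH (median 124) and 106 to 132 CPM in SI females (median 116), with a Log2FC of -0.17 (SE 0.066, adjusted p = 0.163). These 3 genes carried the most negative values of the group.

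Mog, an outer-surface glycoprotein of mature myelin, was at 55.9 to 74.98 CPM in GH (median 66.8) and 57.0 to 72.2 CPM in SI females (median 60.6). Every SI female lay inside the range of the GH females, and the Log2FC was -0.077 (SE 0.064, adjusted p = 0.550). Opalin, a membrane protein of mature cells, had a Log2FC of -0.14 (SE 0.079, adjusted p = 0.345), and Ermn, a cytoskeletal protein, one of -0.068 (SE 0.072, adjusted p = 0.652). The remaining 5 genes, for the inner adhesion protein Mag, the enzyme Cnp, the tight-junction claudin Cldn11, the raft protein Mal and the connexin Gjb1, lay between -0.11 for Cnp and 0.0066 for Gjb1 (SE 0.082).

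Genes of myelin lipid synthesis were split in females, 2 below and 2 above 0. Ugt8a, which makes galactosylceramide, had a Log2FC of 0.064 (SE 0.080, adjusted p = 0.713) and was at 30.2 to 63.7 CPM in GH and 40.9 to 57.5 CPM in SI females. Aspa, which releases acetate for lipid synthesis, had a Log2FC of -0.14 (SE 0.094, adjusted p = 0.439). The hydroxylase Fa2h and the sulfotransferase Gal3st1, which complete the sulfatides, had values of 0.049 and -0.056. At the contact of axon and glia, Nfasc (0.012, SE 0.066) and Cntn2 (0.028, SE 0.066) had Log2FC near 0 in females, and both are also made by neurons.

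All 7 genes for enzymes and carriers of mature cells had a Log2FC below 0 in females. Plekhb1, a membrane-binding protein, was at 426 to 675 CPM in GH (median 551) and 312 to 567 CPM in SI females (median 472), with a Log2FC of -0.24 (SE 0.073, adjusted p = 0.0718). As for Mbp, the 2 lowest SI females lay below all GH females, and they were the same mice, 45 and 63. Sirt2, a deacetylase, had the next lowest p of these 7 genes, with a Log2FC of -0.12 (SE 0.043, adjusted p = 0.124), and 4 of 8 SI females were below every GH female. The iron carrier Trf, the carbonic anhydrase Car2, Ndrg1, the lipid carrier Apod and Qdpr, which regenerates a pterin cofactor, lay between -0.11 and -0.030.

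How many genes were called in females depended on the model. DESeq2 with the same surrogate variables called 5 (Pdgfra, Bcas1, Mbp, Mobp and Plekhb1), taking out the trend of each library with length and GC content also called 5 (Pdgfra, Bcas1, Mbp, Tspan2 and Plekhb1), and edgeR without surrogate variables called 0. Leaving out 1 female at a time gave 0 to 5 calls, with 4 without SI female 41 (825 of all genes) and 2 without GH female 79 (700). Where it gave 0, 88 (without SI female 68) to 1017 (without SI female 52) of all genes were called. Without GH female 46 there were 5 calls with 2 surrogate variables (945 of all genes) and 6 with 3 (1374 of all genes). Without GH female 78 there were 5 with 4 (1428 of all genes) and 2 with 3 (1077 of all genes). Without SI female 45 there were 0 with 2 (146 of all genes) and 1 with 3 (461 of all genes). Over the mice left out the Log2FC was -0.34 to -0.17 for Mbp, -0.38 to -0.14 for Mobp, -0.34 to -0.15 for Bcas1, -0.24 to -0.071 for Tspan2, -0.18 to -0.13 for Pdgfra and -0.17 to -0.0095 for Cspg4.

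Markers of other cells were examined in the same females. Of 10 astrocyte genes 5 were DEGs, all with lower levels in SI and a median Log2FC over the list of -0.22, and their summed level was 5678 to 7640 CPM in GH and 4645 to 6633 CPM in SI females. Summed neuron markers were at 4558 to 5316 CPM in GH and 4896 to 5868 CPM in SI females, with 1 of 10 a DEG and higher. Summed endothelial markers did not overlap, at 214 to 251 CPM in GH and 253 to 300.3 CPM in SI females, with 1 of 10 a DEG and higher. Microglial sums were 438 to 532 CPM in GH and 398 to 532 CPM in SI females, and 0 of those 10 genes were DEGs. Choroid plexus sums were 938 to 5116 CPM in GH and 1645 to 4148 CPM in SI females, and thalamus sums 177 to 330 CPM and 194 to 398 CPM, with 0 DEGs in either list. No gene of these lists was at 0 in any female, and their part in the oligodendrocyte values was not tested.

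In males 0 of the 34 genes were DEGs, and so were 0% of the 15833 genes tested (edgeR, 2 surrogate variables, lowest adjusted p 0.295). At an unadjusted p under 0.05, 2060 of all genes passed. By that measure 1 of the 34 was lower in SI (2.94%, against 7.38% of all genes) and 2 were higher (5.88%, against 5.63%). Log2FC lay below 0 for 19 genes (55.9%, against 50.7% of all genes), with a median of -0.015. Without SI males 25, 33 and 39, 0 of the 34 were DEGs with 4 surrogate variables or with 2. With 4, 20 lay below 0 (52.3% of all genes) and 0 were lower and 2 higher at an unadjusted p under 0.05 (3.37% and 2.91% of all genes). With 2, 18 lay below 0 (50.8% of all genes) and 2 were lower and 0 higher (2.89% and 2.99% of all genes). DESeq2 with the same surrogate variables called 0 of the 34 and 41 of all genes.

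Pdgfra was the gene of the 34 with a Log2FC below 0 at that level. It was at 40.3 to 51.0 CPM in GH males (median 46.96) and 15.5 to 50.7 CPM in SI males (median 33.3), with a Log2FC of -0.19 (SE 0.079, adjusted p = 0.354). Its 3 lowest values, 15.5, 18.6 and 22.3 CPM, were those of SI males 25, 33 and 39. Without these 3 mice the Log2FC was -0.022 with 4 surrogate variables (SE 0.070, adjusted p = 0.985) and -0.034 with 2 (SE 0.067, adjusted p = 0.891). Cspg4 had a Log2FC of 0.16 (SE 0.087, adjusted p = 0.423) with all males, and 0.045 (SE 0.066) and 0.23 (SE 0.12) without the 3. The same 3 mice had its lowest CPM, 12.5 to 13.4.

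The 2 genes with a Log2FC above 0 at that level were Opalin and Apod. Opalin was at 22.1 to 35.7 CPM in GH males (median 25.6) and 25.3 to 65.4 CPM in SI males (median 32.8), with a Log2FC of 0.20 (SE 0.073, adjusted p = 0.330). SI males 25, 33 and 39 held the highest 3 Opalin values, at 51.7 CPM or more, and the Log2FC without them was 0.20 with 4 surrogate variables (SE 0.098, adjusted p = 0.816) and 0.13 with 2 (SE 0.093, adjusted p = 0.744). Apod was at 77.2 to 137 CPM in GH males and 76.0 to 212 CPM in SI males, with a Log2FC of 0.20 (SE 0.090, adjusted p = 0.375). Without the 3 mice it was 0.21 (SE 0.086, adjusted p = 0.753) and 0.18 (SE 0.11, adjusted p = 0.742).

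The newly formed genes all had Log2FC below 0 in males. Gpr17 was at 38.4 to 55.3 CPM in GH and 20.2 to 49.4 CPM in SI males, with a Log2FC of -0.12 (SE 0.084, adjusted p = 0.546), and -0.070 (SE 0.090) and -0.036 (SE 0.097) without the 3 mice. Bcas1 was at 168 to 255 CPM in GH and 139 to 278 CPM in SI males, with a Log2FC of -0.085 (SE 0.12, adjusted p = 0.786). Without the 3 mice Bcas1 was at 0.13 with 4 surrogate variables (SE 0.060, adjusted p = 0.789) and at -0.092 with 2 (SE 0.15, adjusted p = 0.861), so its direction changed with the number of surrogate variables and not when only the mice were left out. Enpp6 had a Log2FC of -0.028 (SE 0.11), and -0.049 and -0.038 without the 3 mice.

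Of the transcription factors in males, Nkx6-2 had the highest Log2FC, 0.18 (SE 0.090, adjusted p = 0.402), and Myrf the lowest, -0.097 (SE 0.070, adjusted p = 0.549). Without the 3 mice Nkx6-2 was at -0.022 (SE 0.052) and 0.012 (SE 0.053), and Myrf at -0.11 (SE 0.071) and 0.049 (SE 0.11). Olig2 was at 32.5 to 49.7 CPM in GH and 28.3 to 45.6 CPM in SI males, with a Log2FC of -0.0051 (SE 0.10, adjusted p = 0.992), and -0.046 and -0.018 without the 3 mice.

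Mbp ranged from 2687 to 3959 CPM in GH males (median 3372) and from 2209 to 3894 CPM in SI males (median 3238). SI male 7 alone lay below all GH males, and the Log2FC was -0.15 (SE 0.12, adjusted p = 0.597). Without the 3 mice it was 0.028 with 4 surrogate variables (SE 0.046) and -0.16 with 2 (SE 0.12). Mobp had a Log2FC of -0.13 (SE 0.14, adjusted p = 0.712) with all males, and 0.15 (SE 0.071, adjusted p = 0.789) and -0.092 (SE 0.16, adjusted p = 0.876) without the 3. For both genes the direction changed with the number of surrogate variables and not with the mice alone. Mog was at 46.1 to 65.7 CPM in GH and 48.3 to 105 CPM in SI males, with a Log2FC of 0.086 (SE 0.061, adjusted p = 0.540), and 0.032 (SE 0.060) and 0.027 (SE 0.070) without the 3 mice. In SI males 25, 33 and 39 Mog stood at 89.7 CPM or more, above every other male.

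Ermn had the most negative Log2FC of the 34 genes in males, -0.20 (SE 0.10, adjusted p = 0.413), and -0.037 (SE 0.078) and -0.18 (SE 0.12) without the 3 mice. Plekhb1 had -0.17 (SE 0.11, adjusted p = 0.489), and 0.0049 (SE 0.047) and -0.19 (SE 0.12) without them. Ugt8a had -0.17 (SE 0.11, adjusted p = 0.488), and -0.060 (SE 0.098) and -0.13 (SE 0.12) without them. Gal3st1 had 0.098 (SE 0.097), and -0.061 and -0.018 without the 3 mice, so that its direction turned in both. Gjb1 had 0.12 (SE 0.099), and 0.045 and 0.067. Cntn2 had 0.040 (SE 0.080), and -0.034 and 0.15, and Nfasc had 0.036 (SE 0.066), and 0.035 and 0.20. Aspa was at 11.6 to 18.2 CPM in GH and 9.99 to 29.6 CPM in SI males, with a Log2FC of -0.023 (SE 0.10), and 0.088 (SE 0.083) and -0.041 (SE 0.11) without the 3 mice. Leaving out SI male 27 gave 5 calls among the 34 genes (Pdgfra, Gpr17, Nkx6-2, Mobp and Opalin) and 2413 among all genes, and leaving out any other single male gave 0 among the 34.

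Neuron markers had a median Log2FC of 0.18 in males and thalamus markers one of 0.49, with 0 of 10 DEGs in each list and 5 and 8 of 10 higher at an unadjusted p under 0.05. The thalamus sum was 166 to 232 CPM in GH and 186 to 376 CPM in SI males, and the neuron sum 5033 to 5942 CPM and 5216 to 6473 CPM. Astrocyte sums were 5081 to 7017 CPM in GH and 3994 to 6279 CPM in SI males, microglial sums 410 to 511 CPM and 396 to 751 CPM, and endothelial sums 228 to 299 CPM and 242 to 366 CPM. Choroid plexus sums ranged from 115 to 2336 CPM in GH males and from 96.3 to 4211 CPM in SI males. SI male 25 held the highest microglial, endothelial and choroid plexus sums and the lowest astrocyte sum of the SI males. Among the 10 choroid plexus genes 1 had a count of 0 in 1 SI male, and no other gene of these lists was at 0 in a male. Their part in the oligodendrocyte values of males was not tested.

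**Figure D2:**
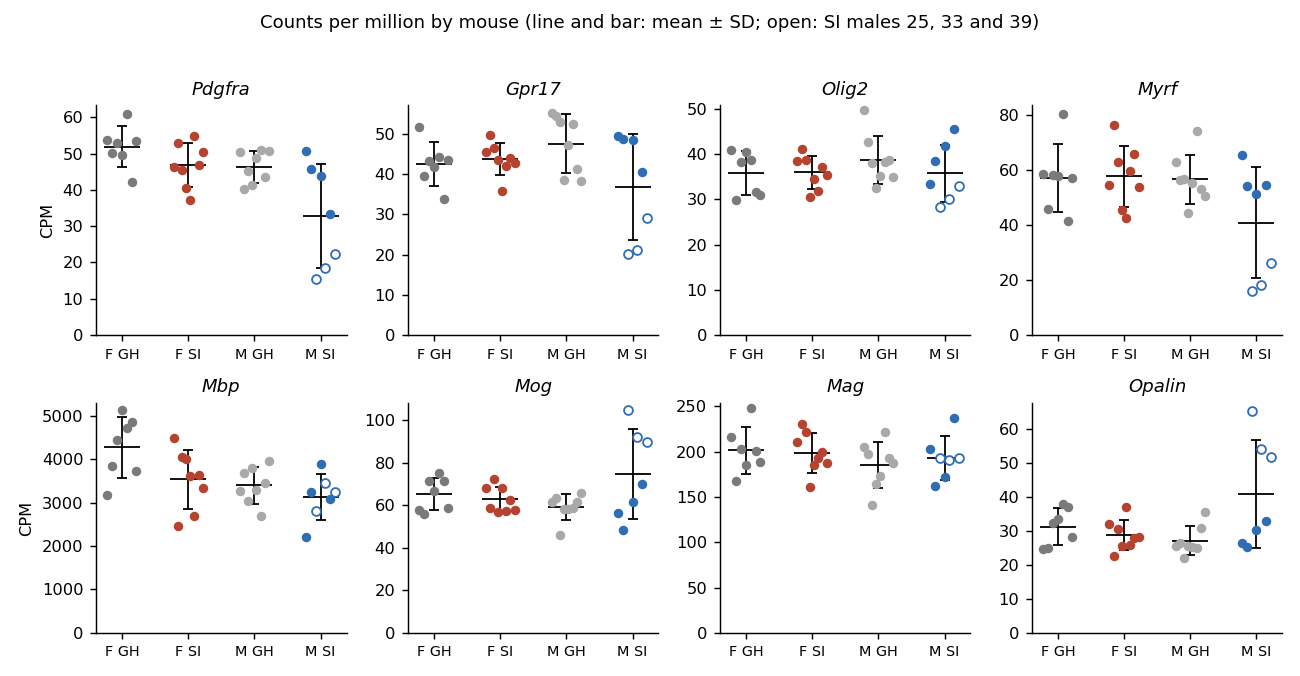
CPM (y axis, from 0) of Pdgfra, Gpr17, Olig2, Myrf, Mbp, Mog, Mag and Opalin in each mouse, by sex (F, M) and housing (GH, SI), with the mean and SD of each group. Open points are SI males 25, 33 and 39, which are at the bottom for Pdgfra, Gpr17 and Myrf and at the top for Mog and Opalin, where the highest values are 105 and 65.4 CPM.

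The SI males 25, 33 and 39 were compared with the other males gene by gene. Of the 34 genes 8 lay below all other 12 males in each of the 3 mice (25.1% of all 16391 genes did), 9 lay above all of them (23.5% of all genes) and 17 overlapped. These shares are near those of all genes. Those below were Pdgfra, Cspg4, Gpr17, Sox10, Myrf, Fa2h, Nfasc and Cntn2, and those above were Enpp6, Nkx6-2, Mog, Cnp, Opalin, Aspa, Trf, Apod and Qdpr.

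Myrf, with a transcript of 5674 bases, was at 15.9, 18.1 and 26.3 CPM in males 25, 33 and 39 and at 44.4 to 74.1 CPM in the other 12 males. Qdpr, with a transcript of 1400 bases, was at 507, 465 and 413 CPM in these 3 mice and at 209 to 308 CPM in the others. On the log2 scale the 3 mice minus the other 4 SI males gave -1.51 for Myrf, -1.26 for Nfasc (9778 bases) and -1.20 for Pdgfra (6570 bases). The same difference was 0.99 for Opalin (1838 bases), 0.90 for Qdpr and 0.71 for Mog (1701 bases). It was 0.047 for Mbp (4797 bases) and 0.80 for Enpp6 (3063 bases). The slope on length over all genes already sets these 3 mice apart, so the order by length among the 34 is a description and no separate result.

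**Figure D3:**
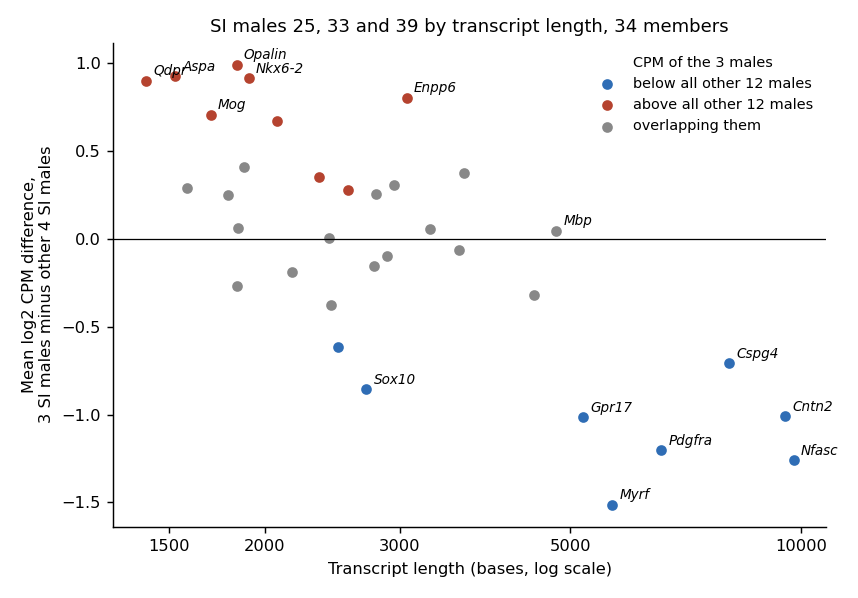
Difference in mean log2 CPM between SI males 25, 33 and 39 and the other 4 SI males (y axis) against transcript length in bases (x axis, log scale), 1 point per gene. Points are marked by whether the 3 mice lay below, above or among the other 12 males, and the value falls from about 0.99 for Opalin to -1.51 for Myrf.

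Whether housing acted differently in the sexes was asked by a test of the interaction over all 30 mice with 4 surrogate variables. Of the 34 genes 0 passed, as did 0% of 16391 genes tested with edgeR, and 1227 of all genes (7.49%) had an unadjusted p under 0.05. DESeq2 with the same surrogate variables called 0 of the 34 genes and 8 of all genes. Apod (-0.25, SE 0.092, adjusted p = 0.602) and Opalin (-0.29, SE 0.11, adjusted p = 0.617) were the 2 genes of the 34 with an unadjusted p under 0.05, a share of 5.88% against 2.55% of all genes in that direction, and 0 of the 34 had one above 0 at that p, against 4.94%. In that direction the count was 7 without SI males 25, 33 and 39 (5.14% of all genes), 5 with edgeR and no surrogate variables (13% of all genes) and 6 with at least 10 counts in every sample (6.15% of all genes), with 0 of the 34 called in each. The interaction is the Log2FC of females minus that of males, so SI stood lower against GH in females than in males for both. Pdgfra, below 0 in both sexes, had an interaction of -0.015 (SE 0.070).

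GH females and GH males were compared in the same fit, without SI mice in the contrast. Of the 34 genes 5 were DEGs (14.7%, where 6.39% of all genes were DEGs), and all 5 were higher in females, where 3.35% of all genes were DEGs in that direction and 3.04% in the other. At an unadjusted p under 0.05, 11 of the 34 were higher in females (13.3% of all genes) and 1, Gpr17, was lower (13.1% of all genes), and 11 had a difference below 0 (49.6% of all genes). The 5 DEGs were Bcas1 (ENSMUSG00000013523, chromosome 2, 170172491 to 170253345 in NCBIM37), Mobp (ENSMUSG00000032517, chromosome 9, 120058860 to 120090602), Tspan2 (ENSMUSG00000027858, chromosome 3, 102538452 to 102576215), Plekhb1 (ENSMUSG00000030701, chromosome 7, 107791406 to 107810928) and Qdpr (ENSMUSG00000015806, chromosome 5, 45825271 to 45841474). Each is a protein-coding gene. They are not 5 separate observations. Bcas1, Mobp and Plekhb1 varied closely with Mbp in females and in males other than 25, 33 and 39 (r = 0.939 to 0.985).

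Bcas1 was at 204 to 328 CPM in GH females (median 302) and 168 to 255 CPM in GH males (median 212), and 6 of 7 females lay above every GH male. Its log2 difference of females minus males was 0.45 (SE 0.12, adjusted p = 0.0270). Mobp had medians of 1388 and 984 CPM, again with 6 of 7 GH females above all GH males, and a difference of 0.47 (SE 0.13, adjusted p = 0.0363). Plekhb1 had medians of 551 and 427 CPM and a difference of 0.39 (SE 0.11, adjusted p = 0.0322), with 5 of 7 females above all males. Qdpr was at 251 to 386 CPM in GH females and 217 to 308 CPM in GH males, a difference of 0.21 (SE 0.061, adjusted p = 0.0416). Tspan2 was at 112 to 173 CPM in GH females and 96.9 to 133 CPM in GH males, a difference of 0.20 (SE 0.055, adjusted p = 0.0354). In each of the 5 genes the groups overlapped.

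Mbp had a difference of 0.35 (SE 0.12, adjusted p = 0.0649) and Pdgfra one of 0.15 (SE 0.048, adjusted p = 0.0576), with 4 of 7 GH females above all GH males for each. Mog (0.094, SE 0.055, adjusted p = 0.286), Gpr17 (-0.16, SE 0.065, adjusted p = 0.124) and Olig2 (-0.15, SE 0.079, adjusted p = 0.222) did not pass. All 11 myelin protein genes had a value above 0, from 0.0046 for Cldn11 to 0.47 for Mobp, and 3 of 5 transcription factors lay below 0. The contrast with housing in females uses the same GH females, so the values of the 2 contrasts share those 7 libraries.

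**Figure D4:**
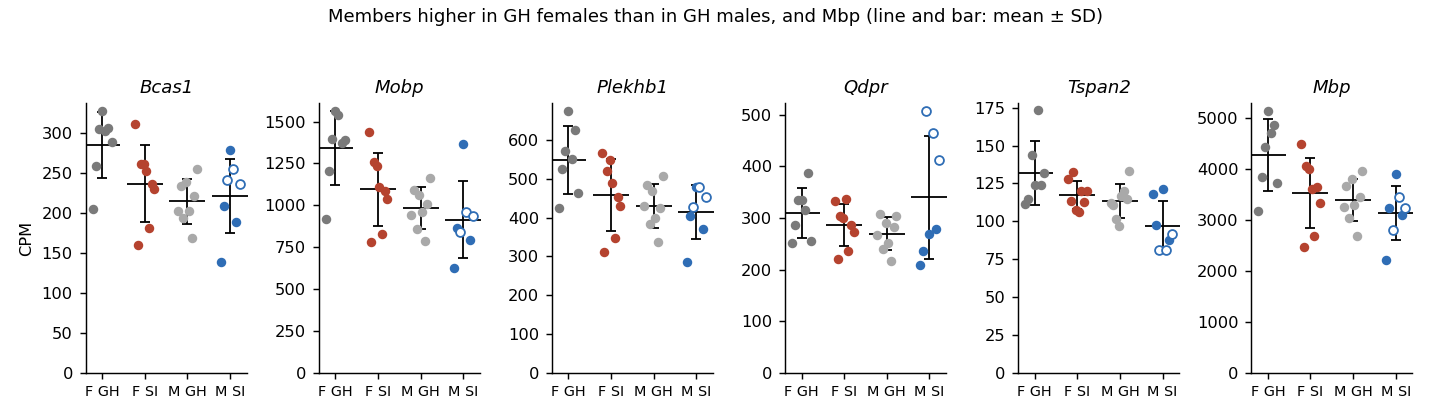
CPM (y axis, from 0) of Bcas1, Mobp, Plekhb1, Qdpr, Tspan2 and Mbp in each mouse, by sex (F, M) and housing (GH, SI), with the mean and SD of each group. GH females hold the highest medians of GH mice, such as 1388 against 984 CPM for Mobp, and open points are SI males 25, 33 and 39.

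This difference between GH females and GH males was lost in several settings. The number of calls was 0 in edgeR without surrogate variables (16 of all genes) and 0 without SI males 25, 33 and 39 in the shared fit (150). It was 0 without GH males 1, 2 and 3, whose choroid plexus genes were low (84 of all genes). With the 15 GH mice alone it was 1 (Bcas1, and 186 of all genes). Leaving out 1 GH mouse gave 0 (without GH female 48, 54 or 71, or GH male 3 or 22) to 11 calls (without GH male 24), and 8 without GH male 15. Where it gave 0, 117 (without GH male 3) to 457 (without GH female 48) of all genes were called. Without GH male 24, 2660 of all genes were called, and without GH male 15, 2583. It gave 1 call without GH male 23, 2 without GH female 47 and 3 without GH male 1 or 2. The direction of all 5 genes stayed above 0 throughout, and without SI males 25, 33 and 39 the difference was 0.26 (SE 0.084) for Bcas1, 0.27 (SE 0.097) for Mobp and 0.24 (SE 0.076) for Plekhb1. Beside these genes, 4 of 10 astrocyte and 2 of 10 microglial markers were DEGs and higher in GH females (3.35% of all genes). In the other direction 3 of 10 neuron and 1 of 10 endothelial markers were DEGs and lower (3.04% of all genes). The part of these cells in the difference was not tested.

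Mbp was set beside other members mouse by mouse. Deviations from the mean of each group were correlated in 7 pairs of genes, in the 15 females and in the 12 males without 25, 33 and 39, giving 14 relations with Benjamini-Hochberg adjustment over them. The 4 pairs with Mbp were chosen after the values were seen, so their r and rho are a description and no p is given. They still count among the 14 relations. The adjusted p of the planned pairs of Mog can therefore be lower than an adjustment over those pairs alone would give. Mbp and Plekhb1 had r = 0.975 and rho = 0.957 in females, and r = 0.957 without the 2 mice farthest from the median (SI female 45 and GH female 46). In males they had r = 0.981 and rho = 0.951, and r = 0.960 without SI male 7 and GH male 22.

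Mbp and Mobp had r = 0.945 and rho = 0.904 in females, and r = 0.904 without the 2 farthest mice. In males they had r = 0.939 and rho = 0.965, and r = 0.919 without 2. Mbp and Bcas1 had r = 0.957 and rho = 0.921 in females and r = 0.920 without 2. In males this pair had r = 0.985 and rho = 0.993, and r = 0.973 without 2.

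Mbp and Mog, both genes of mature myelin, had r = 0.686 and rho = 0.654 in females, and r = 0.668 without 2. In males the pair had r = 0.299 and rho = 0.469, and r = 0.396 without 2. Mog and Mag, 2 membrane proteins of mature myelin, had r = 0.523 (permutation p = 0.0461, adjusted p = 0.0717) and rho = 0.499 (permutation p = 0.0607, adjusted p = 0.0944) in females. In males Mog and Mag had r = 0.761 (permutation p = 0.00386, adjusted p = 0.00772) and rho = 0.608 (permutation p = 0.0403, adjusted p = 0.0706). These adjusted p are over a family that holds the Mbp pairs chosen after the values were seen. Without the 2 mice farthest from the median of Mog r was 0.356 in females and 0.427 in males. Leaving out those mice narrows the range of Mog, so whether the relation rested on them cannot be told.

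No relation of Mog with the 2 genes of earlier stages passed the adjustment. With Pdgfra r was -0.224 and rho -0.175 in females (permutation p = 0.420 and 0.529, adjusted p = 0.420 and 0.570) and -0.273 without 2, and r was -0.356 and rho -0.322 in males (permutation p = 0.254 and 0.308, adjusted p = 0.324 and 0.373) and -0.604 without 2. With Gpr17 r was -0.241 and rho 0.063 in females (permutation p = 0.388 and 0.824, adjusted p = 0.418 and 0.824) and -0.444 without 2, and r was -0.405 and rho -0.315 in males (permutation p = 0.191 and 0.319, adjusted p = 0.268 and 0.373) and -0.313 without 2. All points of a relation share the same libraries, so a change of scaling in 1 mouse moves both genes.

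**Figure D5:**
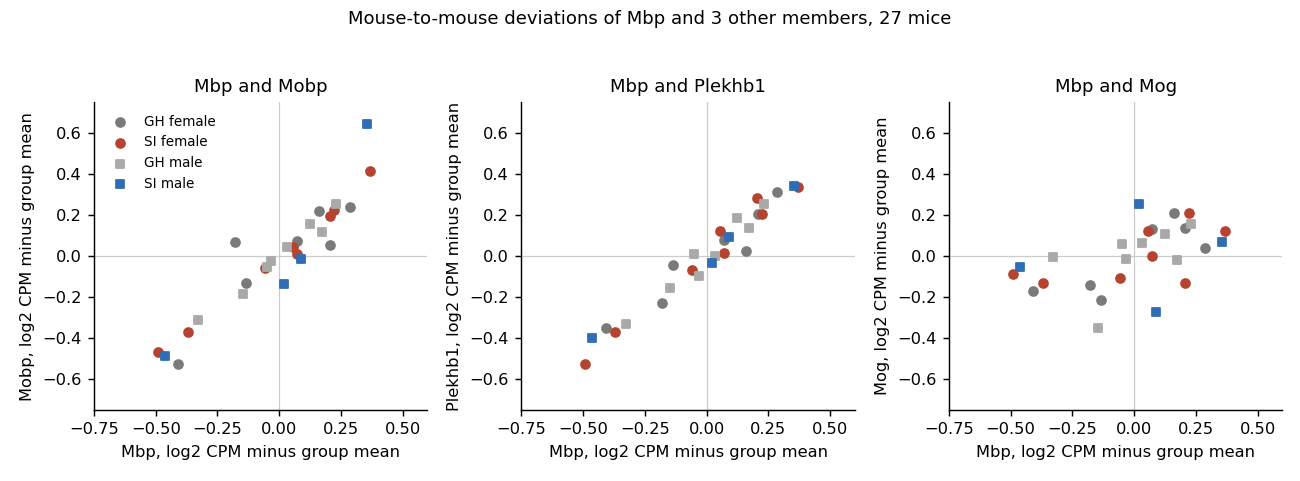
Deviation of log2 CPM from the group mean of Mbp (x axis) against that of Mobp, Plekhb1 and Mog (y axes), 1 point per mouse, in females (circles) and in males other than 25, 33 and 39 (squares). Points lie close to a line for Mobp and Plekhb1, with r = 0.975 for Plekhb1 in females, and scatter for Mog, with r = 0.299 in males.

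The bases before the start of Mobp and Plekhb1, which had high r with Mbp, are shown beside those of Mog, whose r with Mbp was lower in both sexes, a difference that was not tested. Each window holds the 250 bases before a RefSeq start on GRCm38.p6, 5′ to 3′ on the strand of the gene, and capitals mark ACAAAG or its reverse complement CTTTGT, the core that SOX factors such as Sox10 bind. RefSeq gives Plekhb1 2 starts.
Mobp, chr9:120149492-120149741, plus strand: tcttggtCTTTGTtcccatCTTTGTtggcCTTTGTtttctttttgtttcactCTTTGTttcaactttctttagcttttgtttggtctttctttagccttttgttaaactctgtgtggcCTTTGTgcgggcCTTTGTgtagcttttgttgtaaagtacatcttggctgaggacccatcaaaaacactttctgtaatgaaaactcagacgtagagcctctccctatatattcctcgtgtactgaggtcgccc
Plekhb1, chr7:100662395-100662644, minus strand: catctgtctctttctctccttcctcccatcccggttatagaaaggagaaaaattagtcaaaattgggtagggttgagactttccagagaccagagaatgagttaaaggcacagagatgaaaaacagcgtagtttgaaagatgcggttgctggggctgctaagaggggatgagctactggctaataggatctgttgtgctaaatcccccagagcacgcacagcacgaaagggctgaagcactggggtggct
Plekhb1, second start, chr7:100656966-100657215, minus strand: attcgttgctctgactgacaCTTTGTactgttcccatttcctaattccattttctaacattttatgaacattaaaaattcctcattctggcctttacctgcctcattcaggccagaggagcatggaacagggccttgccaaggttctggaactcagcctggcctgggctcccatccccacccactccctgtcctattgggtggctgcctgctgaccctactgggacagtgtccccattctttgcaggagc
Mog, chr17:37023399-37023648, minus strand: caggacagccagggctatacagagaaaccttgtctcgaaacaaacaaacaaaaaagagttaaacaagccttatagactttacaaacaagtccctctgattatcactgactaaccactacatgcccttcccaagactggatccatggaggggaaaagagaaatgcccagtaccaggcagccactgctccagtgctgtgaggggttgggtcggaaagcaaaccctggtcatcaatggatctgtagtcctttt

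The Mobp window held the letters at 6 positions, the second Plekhb1 window at 1, and the first Plekhb1 window and the Mog window at 0. Of 32851 windows of the same length before all RefSeq starts 16.5% held them. Windows were found for 24 of the 34 genes, 34 windows in all, and 10 of these, from 8 genes, held the letters. Windows of 1 gene can overlap, as the first 2 of Mag do, so 1 stretch of bases can count more than once. CTGGCAC, the letters bound by Myrf, stood in 3 of the 34 windows, those of Mag and Cnp, against 4.19% of all windows. CAGCTG, an E-box, stood in 1 window (13% of all) and TATAAA in 3 (12.4% of all). Both strands were searched, none of these 3 motifs stood in the printed windows, so none overlaps the capitals there, and a match is a description of letters and not of binding.

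Among 50 further genes of the lineage, 49 were found in the table. In females 3 of the 49 tested (6.12%) were DEGs, all lower in SI, where 3.89% of all genes were DEGs and 2.93% were DEGs and lower. They were the precursor genes Sox6 (-0.30, adjusted p = 0.0231), a transcription factor that holds precursors back from maturing, and Ptprz1 (-0.25, adjusted p = 0.0398), a receptor phosphatase that astrocytes also make. The third was Itpr2 (-0.22, adjusted p = 0.0339), a calcium channel marking newly formed cells and also present in astrocytes. Of these 49 genes 39 had a Log2FC below 0 (79.6%, against 47.2% of all genes), and 0 of the 30 further myelinating genes were DEGs. In males 0 of 48 tested were DEGs, and the interaction gave 0 of 49. Between GH females and GH males Itpr2 was a DEG, at 0.25 (adjusted p = 0.0195), and the other 48 were not, where 6.39% of all genes were DEGs.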

How the data were processed

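Reads were trimmed (Trimmomatic 0.39) and quasi-mapped (Salmon 1.8.0) by the authors, who deposited whole-number, unnormalized counts for each Ensembl gene in each mouse. Every gene of the deposited table has a total of at least 100 counts. The submitters' processing notes name the builds GRCm39 and mm39, and the annotation release is not given in the sources used here. All 30 columns matched a mouse by name. The members and gene lists were chosen with earlier results of these data known, and the lists of other cells were written from general knowledge.

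Within each sex genes were kept with filterByExpr of edgeR 4.0.16 in R 4.3.3 (minimum count 10, minimum total 15), scaled by TMM and tested by glmQLFTest for SI against GH. Surrogate variables came from svaseq of sva 3.50.0 (20 permutations, seed 1), 3 in females and 2 in males. The interaction and the contrast of GH females with GH males came from 1 fit of all 30 mice with 4. P-values were adjusted over all genes tested (Benjamini-Hochberg, threshold 0.05). They rest on the spread between mice that is left after the surrogate variables. Each mouse was treated as independent, although GH mice shared cages. Log2 CPM used a prior count of 2. Symbols were found for 94.1% and transcript length and GC content (longest coding transcript, GENCODE vM1, NCBIM37) for 91.3% of the genes. All 34 genes passed the filter in both sexes.

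Full statistics were given for genes called in any contrast, for Pdgfra, Gpr17, Olig2, Mog and Mbp, and for the gene with the smallest p in each direction, sex and functional group. Alternatives were DESeq2 1.42.0, other numbers of surrogate variables, other scaling and filters, and limma-voom of limma 3.58.1 with sample quality weights. Others were removal of length and GC trends by lowess (span 0.3), the position digit of the labels, and leaving out mice. The steps were also run on simulated data. The settings and outcome of that run are not given here, so no conclusion about the calls is drawn from it. Where samples or filters changed, surrogate variables were estimated again, and their number could change with them. Depth was 18809307 to 100844898 counts per library.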

Additional observations from a re-analysis of the deposited data

Results flagged for a closer look

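In each of the 4 groups the highest and the lowest mouse was compared with its nearest neighbour for every gene, 136 pairs of gene and group, and 4 stood out by Dixon's criterion. Chance flags about 1 in 20 groups. Mog was at 46.1 CPM in GH male 3, where the next lowest GH male was at 58.0 CPM, a gap of 0.649 of the range on the log2 scale. Mal was at 307 CPM in SI male 27 and at 229 CPM or less in the other SI males (0.615 of the range). Ndrg1 was at 148 CPM in SI female 49, next to 128 CPM (0.654), and Apod was at 184 CPM in GH female 71, next to 137 CPM (0.596). SI male 27 is also the mouse without which 5 of the 34 genes were called in males. Without it 2413 of all 15790 genes tested were called, so that count is not particular to the 34.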

How the results depend on the processing

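In females 0 of the 34 genes were called, and the count was 1 with 1 surrogate variable, with at least 10 counts in every sample or with all 4 groups in one fit, 2 with one surrogate variable more, 2 with no filter and 5 surrogate variables, 3 with no filter and the 3 of the main result, and 5 with DESeq2 and the same surrogate variables or with the length and GC trend removed. It was 0 without surrogate variables in either tool, with DESeq2's size factors, limma-voom, the position digit, or the trend removed and no surrogate variables, and leaving out 1 female gave 0 to 5, or 0 to 6 with the number of surrogate variables held. Calls among all genes changed too, from 624 in the main fit. They were 529 with 1 surrogate variable, 588 with at least 10 counts in every sample and 512 with all 4 groups in one fit. With 1 surrogate variable more they were 1083, and with no filter 730 (5 surrogate variables) and 685 (3). With all females kept and 0 of the 34 called, they were 0 (edgeR without surrogate variables) to 838 (limma-voom). In males 0 of the 34 were called in all alternatives and 0 to 5 leaving out 1 male. The 5 came without SI male 27, where 2413 of all genes were called. The interaction gave 0 in every alternative. Between GH females and GH males the count of 5 became 0 without surrogate variables (edgeR or DESeq2), with 1 surrogate variable, with at least 10 counts in every sample, without SI males 25, 33 and 39 and without GH males 1, 2 and 3. It became 1 with the 15 GH mice alone and 2 with no filter, was 6 with one surrogate variable more, 6 with the trend removed and 5 surrogate variables but 5 with the trend removed and 4, and was 7 with DESeq2 and the same surrogate variables, and was 0 to 11 leaving out 1 GH mouse. Among all genes the main fit called 1047. The settings named above with 0 of the 34 called 16 (edgeR without surrogate variables) to 418 (at least 10 counts in every sample). GH mice alone called 186 of all genes and no filter 646. Those with 6 or 7 of the 34 called 1638 (one surrogate variable more) to 2133 (trend removed). Settings added after the data were seen were those of GH mice alone, of GH males 1, 2 and 3, of leaving out GH mice, of one surrogate variable more and of trend removal in this contrast, trend removal in the interaction, trend removal without surrogate variables, and all those that held the number of surrogate variables. The cause of these changes was not tested.

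Genes that were not called also changed sign. Of the 24 genes with full statistics 18 kept their direction in females under all 13 alternatives and 7 in males under 14, while 8 of 10 genes followed between GH females and GH males did so under 12. In females the 6 that changed were Olig2, Myrf, Nkx6-2, Ermn, Gal3st1 and Nfasc. Counting also each mouse left out, 13 of 24 kept their direction in females, where Sox10, Gjb1, Ugt8a, Cntn2 and Apod changed as well, 6 of 24 in males and 8 of 10 between GH females and GH males. No paired analysis was possible because mice carry their own animal numbers and no number is shared between groups. The lowest count of the 34 genes in any mouse was 97, for Enpp6.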
